A study of Mus musculus with 21 samples.

Results

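The 10 genes described here belong to the integrated stress response of mouse cells: the transcription factors Atf4, Ddit3 and Nupr1, the pseudokinase gene Trib3, the glutathione-degrading enzyme gene Chac1, the amino acid genes Asns, Phgdh, Psat1 and Slc7a11, and the mTORC1 inhibitor gene Sesn2. They were taken by name from a table of 24458 genes measured in embryoid bodies, the aggregates in which embryonic stem cells (ESCs) differentiate. The set was chosen by the size of the drop of Trib3, Chac1 and Nupr1 between day 0 and the later days in these same libraries. The change with day is therefore a description of how the genes were selected and carries no test. The comparison of genotypes within a day did not enter this rule and was tested. A further test compared the change with day between genotypes, and it is not fully separate from the choice. All 10 genes had a row in the table, and 9 had a mean of at least 1 FPKM (fragments per kilobase of transcript, scaled by library size) over the 12 libraries. Slc7a11 did not and was left out of every test.

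In the integrated stress response, kinases that sense amino acid shortage, unfolded protein in the endoplasmic reticulum, haem deficiency or double-stranded RNA phosphorylate the translation initiation factor eIF2. General protein synthesis drops while the Atf4 mRNA is translated more, and the ATF4 protein turns on genes for amino acid uptake and synthesis, tRNA charging and redox balance, together with feedback regulators such as Trib3 and Ddit3. Because ATF4 is controlled largely at translation, the level of its mRNA and the activity of the protein can part ways. Mouse ESCs are known for a high demand for threonine, glycine and one-carbon units.

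RNA was sequenced from wild type lines and from lines with a knockout of Cxxc5 (also called Rinf), a gene for a CXXC zinc finger protein that binds unmethylated CpG. Each genotype was collected at days 0, 3 and 6 of embryoid body formation by hanging drop, with 2 libraries in each of the 6 groups. The lines had a mixed 129/C57BL/6 background, were at passages 15-18 and were kept on gelatin in serum with LIF before aggregation, and the replicates of a genotype were independent ESC lines. The study asked how the pluripotency network and the Tet enzymes depend on this gene. Which part of Cxxc5 was removed is not given in the sources at hand, and nothing else was added to or deleted from the cells per the labels. With 2 lines per genotype, p-values measure the spread between these libraries, and an exact two-sided permutation test of 2 against 2 cannot give a p under 0.333. All p-values below come from limma fitted on log2(FPKM + 1) over 12472 genes and all 12 libraries, adjusted by Benjamini-Hochberg, and a gene is called at an adjusted p under 0.05.

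Cxxc5 mRNA followed the labels in every library. At day 0 the wild type libraries held 31.4 and 25.1 FPKM against 6.87 and 8.64 in the knockout. Day 3 gave 30.9 and 36.1 against 5.05 and 7.08, and day 6 gave 39.8 and 52.3 against 9.38 and 11.9. The libraries held an estimated 14.9 to 32.6 M reads, and 11664 to 12287 genes per library had at least 1 FPKM. The summed level of 10 pluripotency markers went from 2488 to 2505 FPKM in wild type at day 0 to 523 to 849 at day 6, and from 2208 to 2293 to 269 to 593 in the knockout. Of 10 feeder fibroblast markers, whose sum stayed between 8.18 and 20.4 FPKM at day 0, Twist2 in wild type and Lum in the knockout were under 0.1 FPKM.

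The promoters of 4 members, namely the 250 bases before the annotated start, are printed because ATF4 acts with C/EBP family proteins through a short element, TGATGNAA. These 4 had the largest drops of the set from day 0 to day 3 in wild type. By day 6 the log2 drop of Psat1 was larger than that of Asns, at -1.96 against -1.92 in wild type and -2.17 against -1.34 in the knockout. Sequences and starts are from RefSeq on GRCm38.p6 (mm10), and each reads 5′ to 3′ on the strand of its gene: Nupr1 at chr7:126625471-126625720 (minus), Chac1 at chr2:119350992-119351241 (plus), Asns at chr6:7693210-7693459 (minus) and Trib3 at chr2:152344061-152344310 (minus). Capitals mark a match to TGATGNAA on either strand.
Nupr1: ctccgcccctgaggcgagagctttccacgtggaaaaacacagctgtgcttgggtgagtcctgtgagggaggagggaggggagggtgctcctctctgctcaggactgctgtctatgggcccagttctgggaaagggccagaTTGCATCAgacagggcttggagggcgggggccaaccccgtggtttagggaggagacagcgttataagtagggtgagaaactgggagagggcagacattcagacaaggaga
Chac1: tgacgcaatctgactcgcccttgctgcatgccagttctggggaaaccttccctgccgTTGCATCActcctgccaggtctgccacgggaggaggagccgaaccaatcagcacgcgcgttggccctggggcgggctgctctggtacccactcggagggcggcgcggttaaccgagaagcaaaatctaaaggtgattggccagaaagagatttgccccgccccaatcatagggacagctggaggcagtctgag
Asns: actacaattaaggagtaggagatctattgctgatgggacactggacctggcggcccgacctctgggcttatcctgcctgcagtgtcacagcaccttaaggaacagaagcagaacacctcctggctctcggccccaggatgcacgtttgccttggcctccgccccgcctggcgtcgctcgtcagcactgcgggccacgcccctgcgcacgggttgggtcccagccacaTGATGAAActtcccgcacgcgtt
Trib3: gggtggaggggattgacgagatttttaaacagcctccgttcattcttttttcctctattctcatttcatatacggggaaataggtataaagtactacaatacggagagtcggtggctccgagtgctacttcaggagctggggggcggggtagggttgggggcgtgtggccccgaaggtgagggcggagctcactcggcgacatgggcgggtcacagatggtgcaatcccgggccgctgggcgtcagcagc
Nupr1 held the match TGATGCAA on the opposite strand, from 110 to 103 bases before the start, and Chac1 held the same letters on the opposite strand, from 193 to 186 bases before it. In Asns the match was TGATGAAA on the gene's own strand, from 23 to 16 bases before the start. Trib3 had no match in this window. Of all 10 members, 4 held the element, the fourth being Slc7a11, with 2 matches of TGATGCAA. Among 27025 genes with a promoter in the RefSeq table, 3.91% held TGATGNAA in a window of the same length, 0.92% held TGATGCAA, which is contained in the first motif, and 1.77% held TGACGTCA, the cyclic AMP response element, which no member had. A match is a description of the letters, not of binding.

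Nupr1 showed the widest range of the set. NUPR1 is a small chromatin-associated protein that is induced in many kinds of stress, and its gene lies at chr7:126623246-126625470. At day 0 the wild type libraries held 53.4 and 55.9 FPKM and the knockout libraries 33.6 and 30.6. At day 3 the values were 3.12 and 2.96 in wild type and 2.39 and 2.74 in the knockout, and at day 6 they were 2.53 and 1.33 against 0.854 and 0.686. Every knockout library was below every wild type library of the same day. Relative to its day 0 mean, Nupr1 stood at 5.56% at day 3 and 3.53% at day 6 in wild type, and at 8.0% and 2.40% in the knockout. At day 6 these levels rested on an estimated 16 to 55 reads per library.

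Chac1 encodes an enzyme that cleaves glutathione in the cytosol and is among the most ATF4-dependent transcripts known. Its gene lies at chr2:119351242-119354326. Day 0 levels were 32.6 and 29.5 FPKM in wild type and 24.2 and 23.5 in the knockout, without overlap. At day 3 the groups overlapped, at 3.36 and 3.81 in wild type and 3.91 and 3.58 in the knockout. At day 6 they parted again, at 3.11 and 2.63 against 1.85 and 1.66. The wild type means at days 3 and 6 were 11.5% and 9.24% of day 0, and the knockout means 15.7% and 7.36%.

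Trib3 encodes a pseudokinase that binds and restrains ATF4 and also inhibits AKT. Its gene lies at chr2:152337425-152344060. The day 0 libraries held 32.4 and 32.6 FPKM in wild type and 29.1 and 27.6 in the knockout. The order of genotypes was the opposite at the later days, with 4.14 and 4.08 in wild type against 4.65 and 4.55 in the knockout at day 3, and 2.57 and 2.68 against 3.08 and 2.96 at day 6. In no pair of neighbouring group levels did the libraries overlap, so that the 6 groups were ordered as wild type day 0, knockout day 0, knockout day 3, wild type day 3, knockout day 6 and wild type day 6. The wild type means at days 3 and 6 were 12.7% and 8.08% of day 0, and the knockout means 16.2% and 10.7%.

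**Figure D1:**
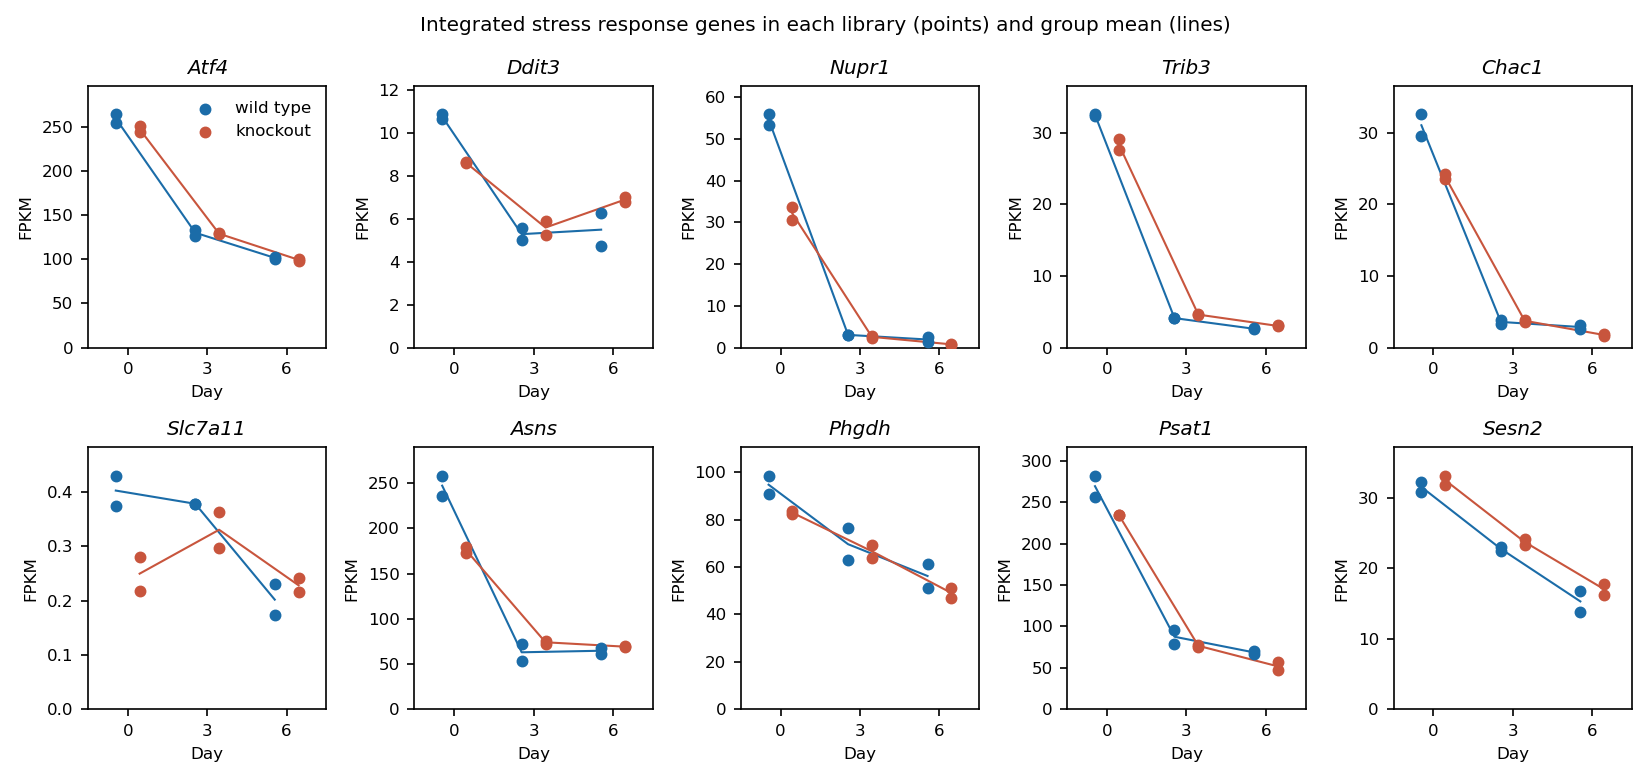
FPKM of the 10 genes, each on its own linear axis from 0, against day of embryoid body formation, with 1 point per library and lines through the group means of 2 libraries, for wild type (blue) and Cxxc5 knockout (red), drawn side by side at each day. Nupr1, Chac1 and Trib3 start between 23.5 and 55.9 FPKM at day 0 and lie at or under 4.65 FPKM in all libraries of days 3 and 6, while Slc7a11 stays under 0.5 FPKM throughout.

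Atf4, the gene for the main transcription factor of the response, held 254 and 265 FPKM in wild type and 244 and 251 in the knockout at day 0, close to the level of Psat1. It stood at 133 and 127 against 128 and 130 at day 3, and at 103 and 101 against 101 and 98.1 at day 6. The day 0 knockout libraries were just below the wild type ones, and the genotypes overlapped at both later days. Atf4 thus kept 50.1% of its day 0 level at day 3 and 39.2% at day 6 in wild type, a much shallower drop than that of Nupr1, Chac1 and Trib3. These are mRNA levels per length, and ATF4 protein was not measured.

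Ddit3 encodes CHOP, a C/EBP family factor that ATF4 induces and that promotes cell death under lasting stress. It was lowly expressed, at 10.6 and 10.9 FPKM in wild type and 8.63 and 8.56 in the knockout at day 0. At day 3 the wild type libraries held 5.54 and 5.01 FPKM and the knockout libraries 5.91 and 5.25. At day 6 the wild type libraries were apart, at 4.71 and 6.26, and both knockout libraries were higher, at 6.78 and 6.98. The knockout mean at day 6 was 80.1% of its own day 0 mean, compared with 51.1% in wild type. GENCODE lists a second, very short Ddit3 transcript of 0.105 kb beside that of 0.89 kb, and a length-scaled value depends on which of them is used.

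Among the amino acid genes, Asns makes asparagine from aspartate and glutamine. Its wild type level at day 0 was 259 and 236 FPKM and its knockout level 172 and 180. At day 3 the wild type libraries held 53.5 and 72.2 and the knockout libraries 72.5 and 75.4. At day 6 the values were 61.4 and 67.8 against 68.6 and 69.6. Asns was thus lower in the knockout at day 0 and slightly higher at both later days, with no overlap on any day, although the day 3 gap was only that between 72.2 and 72.5 FPKM.

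Phgdh and Psat1 encode consecutive enzymes of serine synthesis, and Psat1 differed more between days. Psat1 held 282 and 256 FPKM in wild type and 234 and 235 in the knockout at day 0, 78.7 and 96.1 against 75.3 and 77.7 at day 3, and 69.9 and 67.1 against 56.4 and 47.0 at day 6. The knockout was lower on every day without overlap. Phgdh held 90.9 and 98.7 against 83.6 and 82.4 FPKM at day 0, 63.0 and 76.3 against 69.4 and 64.0 at day 3, and 61.2 and 51.3 against 51.0 and 47.1 at day 6. At day 6 its mean was 59.3% of day 0 in wild type and 59.1% in the knockout, whereas that of Psat1 was 3.93-fold and 4.54-fold lower.

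Sesn2 encodes a leucine-binding inhibitor of mTORC1 and is also a p53 target. It was the tested member with the smallest genotype difference at day 0, where wild type held 30.8 and 32.2 FPKM and the knockout 33.1 and 31.8. Its day 3 libraries held 22.5 and 23.0 against 23.3 and 24.1, and its day 6 libraries 16.8 and 13.8 against 16.2 and 17.7. Slc7a11 encodes the cystine-glutamate exchanger that feeds glutathione synthesis. Its FPKM ranged from 0.173 to 0.431 over all libraries, at an estimated 34 to 107 reads, and no ratio between days or genotypes was tested. The estimate of reads takes the longer GENCODE transcript of Slc7a11, of 9.223 kb, and would be lower with that of 2.419 kb.

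Read by level, every tested member had a lower mean at days 3 and 6 than at day 0 in both genotypes. In all of them except Sesn2 the wild type day 0 group was the highest and the knockout day 0 group the next, without overlap. In Sesn2 the knockout day 0 group was first and overlapped with wild type. After day 0, the groups of Ddit3 and Asns followed no order of day, whereas in the other members both day 3 groups were above both day 6 groups. Between day 3 and day 6 the wild type mean of Ddit3 was 104% and that of Asns 103% of the day 3 mean, against 63.5% for Nupr1, 63.8% for Trib3 and 67.2% for Sesn2. In bulk RNA, fewer cells of a type and less RNA per cell cannot be told apart.

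A lower level at the later day was common among all genes. In wild type, 30.2% of all tested genes were called lower and 25.5% higher at day 3 than at day 0, and 35.4% and 31.5% at day 6. In the knockout the shares were 28% and 24.6% at day 3 and 37.5% and 35.5% at day 6. Nothing about the members is read from these shares, since this contrast chose them. By size of the drop on the log2 scale from day 0 to day 3 in wild type, Nupr1 was number 7 of 12472 genes, Chac1 number 42, Trib3 number 49, Asns number 180 and Psat1 number 302, while Sesn2 was number 2320 and Phgdh number 2383. The members on which the choice rested were thus the ones with the largest drops.

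The genes outside the set whose pattern over the 12 libraries was most like the mean of Trib3, Chac1 and Nupr1 were Cdc5l (Pearson's r = 0.9973), H2-M5 (0.996), Gpt2 (0.9957), 4930444M15Rik (0.9956) and Lrrc2 (0.9956). Cdc5l, a splicing factor gene, held 190 and 170 FPKM in wild type and 143 and 154 in the knockout at day 0, and between 48.7 and 66.2 in all later libraries. Gpt2, the mitochondrial alanine aminotransferase, had a mean of 44.6 FPKM at day 0, 15.0 at day 3 and 11.1 at day 6. The 12 points share the step between day 0 and the later days, which sets most of such a correlation, and r is given as a description. Among the other members, Atf4 had r = 0.9907, Psat1 0.9905 and Asns 0.9673, and Ddit3 had the lowest, 0.8442.

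Between genotypes at day 0, before differentiation, most members were lower in the knockout, but none was called. Of the 9 tested members, 8 had all knockout libraries below all wild type libraries, Sesn2 being the exception, where 25.5% of all tested genes had this order. The differences were largest in Nupr1, at -0.75 on the log2 scale (SE 0.17, 95% interval -1.13 to -0.38, adjusted p = 0.0949), Asns, at -0.49 (SE 0.12, adjusted p = 0.133), and Chac1, at -0.37 (SE 0.09, adjusted p = 0.133). Their knockout means were 58.7%, 71.2% and 76.8% of wild type. Ddit3 stood at 80.0% and Trib3 at 87.3%, and Atf4 at 95.4%, with a 95% interval of the log2 difference from -0.18 to 0.04. limma called 0 of 9 members, and over all genes 0.369% were called. An unadjusted p under 0.05 was found in 5 of the 9 and in 14.7% of all tested genes. The median log2 difference of the 9 was -0.20, beside -0.0022 over all tested genes. Summed levels of cell type markers also differed between the genotypes at day 0. The summed level of 8 trophoblast markers was 50.1 to 50.7 FPKM in wild type and 79.3 to 82.4 in the knockout. In each genotype 5 of these 8 had a mean under 1 FPKM, with Plac1 under 0.1 in both. The pluripotency sum given above was lower in the knockout. The 10 mesoderm markers summed to 7.21 to 7.22 FPKM against 5.31 to 5.46, with 9 of them under 1 FPKM in each genotype. The trophoblast and mesoderm sums thus rest on few genes. The part of these markers in the day 0 differences was not tested.

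These day 0 values depended on how the spread was shared between days. The day 6 replicates lay further apart than the others, and without the day 6 libraries Nupr1 was called at day 0 (adjusted p = 0.0223). With library weights that let day 6 have its own spread, both Nupr1 (adjusted p = 0.0126) and Chac1 (0.0366) were called. In all, Nupr1 passed in 2 and Chac1 in 1 of 13 alternative fits of the day 0 comparison. The day 0 libraries fitted alone called neither, with adjusted p = 0.136 for Nupr1 and 0.165 for Chac1.

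At day 3 limma called 0 of the 9 members, while 1.19% of all genes were called. Trib3 was the 1 member with an unadjusted p under 0.05, a mark that 14.8% of all tested genes reached, and its adjusted p was 0.321. The libraries did not overlap in 5 members, compared with 60.3% of all tested genes. Nupr1 and Psat1 were lower in the knockout, and Trib3, Asns and Sesn2 higher. The interval of the difference for Atf4 ran from -0.12 to 0.10 and that for Chac1 from -0.16 to 0.26 on the log2 scale. The interval for Asns, with a difference of 0.25, ran from -0.03 to 0.52. On the same day the trophoblast markers summed to 64.2 to 75.4 FPKM in wild type and 119 to 120 in the knockout. The mesoderm markers summed to 11.4 to 12.3 against 15.8 to 18.2 and the pluripotency markers to 1148 to 1153 against 1217 to 1230. In each genotype 5 of the 8 trophoblast and 7 of the 10 mesoderm markers had a mean under 1 FPKM. Their part in the day 3 values was not tested.

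At day 6, Chac1, Nupr1 and Psat1 were lower in the knockout and passed the test. Chac1 had a log2 difference of -0.49 (SE 0.09, adjusted p = 0.00548), with a knockout mean of 1.76 ± 0.14 FPKM and a wild type mean of 2.87 ± 0.34 (SD, n = 2 libraries each, limma). Nupr1 had -0.70 (SE 0.17, adjusted p = 0.0137), at 0.770 ± 0.118 against 1.93 ± 0.845 FPKM, and Psat1 had -0.41 (SE 0.11, adjusted p = 0.0215), at 51.7 ± 6.68 against 68.5 ± 1.94 FPKM. These 3 of 9 members stand beside 34.1% of all tested genes called in either direction and 16.2% called lower, so that a call at day 6 was common among genes at large. The fold changes of Chac1 and Nupr1 are understated at these low levels by the added 1 FPKM.

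The other 6 members were not called at day 6. Ddit3 was at 125% of wild type (log2 difference 0.29, adjusted p = 0.0684), Trib3 at 115% (0.15, adjusted p = 0.0674) and Sesn2 at 111% (0.15, adjusted p = 0.207). Phgdh was at 87.3%, Asns at 107% and Atf4 at 97.8%, and the interval for Atf4 ran from -0.14 to 0.08. Single alternatives brought 3 of them past the threshold: Trib3 with a pseudocount of 0.1 (adjusted p = 0.0492), Ddit3 without wild type replicate 2 (0.47, adjusted p = 0.00584) and Sesn2 without wild type replicate 1 (0.28, adjusted p = 0.0317). Libraries did not overlap in 7 of the 9, compared with 63.6% of all tested genes.

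In the 4 day 6 libraries fitted alone, none of the 3 calls held, with adjusted p = 0.123 for Chac1, 0.173 for Nupr1 and 0.137 for Psat1. The call of Nupr1 was also lost without knockout replicate 2 (adjusted p = 0.0856), and that of Psat1 without the same library (0.14) or without wild type replicate 1 (0.0937) and with library weights (0.105). The size of the Nupr1 difference depended on the same wild type library, with -0.40 in place of -0.70 when it was left out (adjusted p = 0.0314), and on the pseudocount, with -1.16 at 0.1 (adjusted p = 0.00728). As at days 0 and 3, cell type markers differed between the genotypes at day 6. The summed level of 10 mesoderm markers was 96.6 to 399 FPKM in wild type and 651 to 696 in the knockout. That of the trophoblast markers was 159 to 378 against 598 to 916, that of 10 extraembryonic endoderm markers 144 to 208 against 223 to 334, and that of 10 neuroectoderm markers 150 to 220 against 73.1 to 113. Feeder fibroblast markers summed to 9.64 to 16.7 against 18.7 to 35.0, with Lum under 0.1 in both genotypes. The part of these markers in the day 6 differences was not tested.

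**Figure D2:**
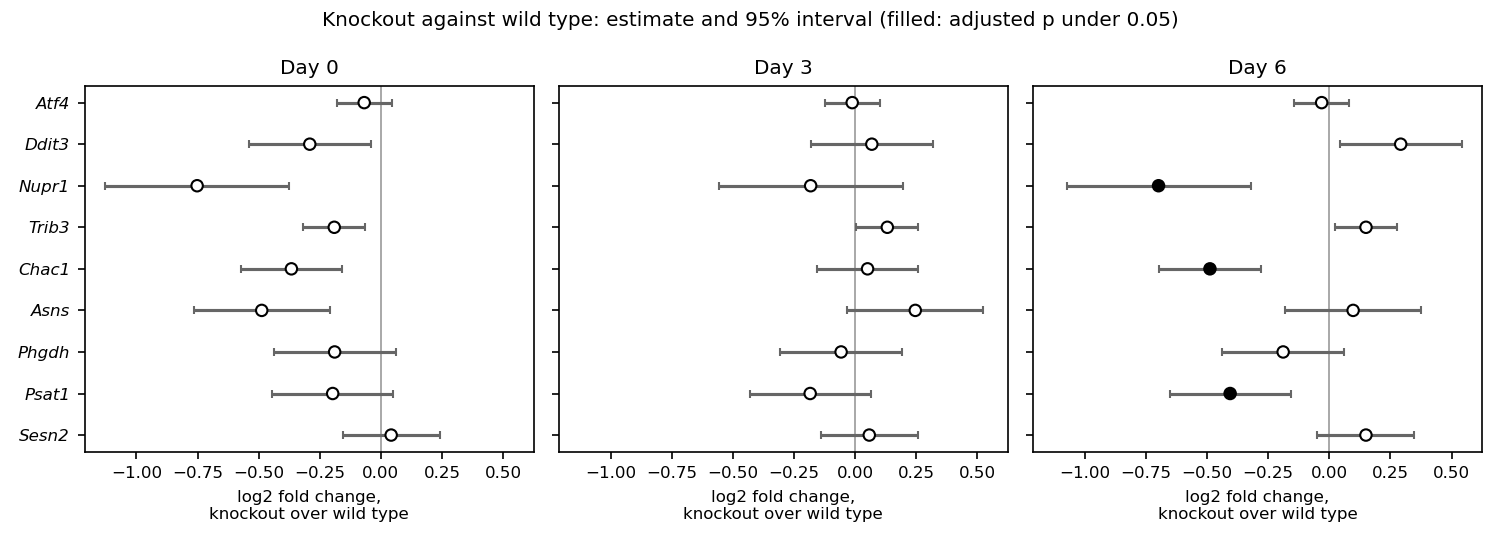
Log2 difference of knockout over wild type with its 95% interval for the 9 tested genes at days 0, 3 and 6, filled where the adjusted p is under 0.05. At day 0 the estimates reach -0.75 in Nupr1 with none filled, and at day 6 Nupr1 (-0.70), Chac1 (-0.49) and Psat1 (-0.41) are filled while Ddit3 (0.29) and Trib3 (0.15) lie above 0.

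Whether the genotype difference changed with day was tested by the interaction. From day 0 to day 6 it passed the threshold in Ddit3, with 0.58 (SE 0.15, adjusted p = 0.0445), and in Trib3, with 0.34 (SE 0.08, adjusted p = 0.0306), both from lower in the knockout at day 0 to higher at day 6. Asns had the same size as Ddit3, 0.58, but was not called (SE 0.17, adjusted p = 0.0592), except without wild type day 6 replicate 2 (0.65, adjusted p = 0.0462). Over all genes 12.2% passed this test in either direction and 5.28% in the direction of Ddit3 and Trib3. Chac1 (-0.12), Nupr1 (0.05) and Psat1 (-0.21), which were called at day 6 itself, showed no called interaction, and the 95% interval for Nupr1 ran from -0.48 to 0.59. Over 15 alternative fits the Nupr1 estimate ran from -0.40 to 0.35, so its sign depended on the setting. Without the added 1 FPKM, the knockout mean of Nupr1 was 58.7% of wild type at day 0 and 39.9% at day 6. The call of Ddit3 was lost with no filter on low values (adjusted p = 0.072), with the replicate block (0.0569), with the line as a random effect (0.0509), with library weights (0.0565) and in 7 of the 8 fits that left out 1 library. The call of Trib3 was lost with library weights (0.0575) and without any one of the 4 day 0 libraries, wild type day 6 replicate 1 or knockout day 6 replicate 2.

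From day 0 to day 3, limma called the interaction in 0 of 9 members and in 0.0401% of all genes. All 9 estimates were above 0, with a median of 0.32 beside 4e-04 over all tested genes. The 9 estimates come from the same libraries, so their shared direction is not 9 independent results. Of the 9, 5 had an unadjusted p under 0.05, compared with 7.67% of all tested genes. These 5 were Asns with 0.73 (adjusted p = 0.366), Trib3 with 0.32 (adjusted p = 0.383), Chac1 with 0.42 (0.512), Nupr1 with 0.57 (0.615) and Ddit3 with 0.36 (0.641). Asns passed the threshold without wild type day 3 replicate 2 (0.95, adjusted p = 0.0391). Both interactions use the same day 0 libraries, in which these members were lower in the knockout, so the estimates are not independent of each other or of the day 0 comparison.

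The wider pathway was described with 14 lists of related genes, 150 genes present in the table of which 145 were tested. Some genes are in several lists. Cebpb, Atf3 and Atf5 are among both the bZIP partners of ATF4 and the further ATF4 targets. Ppp1r15a is among both the upstream eIF2 genes and the further ATF4 targets. The lists were drawn up with results from these data known, and their counts are not independent evidence. Counts of genes that fell or rose are of genes called lower or higher at the later day. Over all tested genes, 30.2% fell and 25.5% rose at day 3 in wild type, and 28% and 24.6% in the knockout. At day 6 these shares were 35.4% and 31.5% in wild type, and 37.5% and 35.5% in the knockout. Upstream, 15 genes for the eIF2 kinases, eIF2 alpha, its exchange factor eIF2B and the phosphatase subunits were considered. Of these, 7 fell and 2 rose from day 0 to day 3 in wild type (median -0.21), and 8 fell and 2 rose in the knockout (median -0.23). Those that rose included Impact, an inhibitor of the amino acid sensing kinase GCN2, which went from 33.2 and 33.3 FPKM at day 0 to 109 in both wild type libraries at day 3 (log2 difference 1.68, adjusted p = 1.19e-06), and Dnajc3, an inhibitor of the kinases PERK and PKR (0.99, adjusted p = 9.32e-05). Eif2b3, a subunit of eIF2B, fell by 1.14 on the log2 scale (adjusted p = 8.87e-06).

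Genes for the charging of tRNA moved together. All 12 tRNA synthetase genes known as ATF4 targets fell from day 0 to day 3 and to day 6 in both genotypes, with medians of -0.87 and -1.18 in wild type and -0.77 and -0.98 in the knockout. Cars, for cysteine, fell by 1.31 and Aars, for alanine, by 1.21 at day 3 in wild type (adjusted p = 7.92e-06 and 6.31e-06). The 8 synthetase genes not known as targets also fell in wild type on both days, with medians of -0.42 and -0.60, and in the knockout 8 fell at day 3 and 6 at day 6, with medians of -0.46 and -0.39. The median over all tested genes lay between -0.0227 and -0.0203 in these 4 contrasts. The difference between the 2 lists was not tested.

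Other enzymes of amino acid supply fell in part. Among 9 enzymes of other amino acids, 5 fell and 1 rose at day 3 in wild type, including Cth, which makes cysteine (-1.93), Gpt2 (-1.67) and Pycr1, for proline (-1.65). Of 7 tested serine, glycine and one-carbon enzymes, 4 fell and 2 rose, among them Psph, the enzyme after PSAT1, from 34.7 and 32.3 FPKM to 9.72 and 10.3 (-1.65). Of 10 amino acid transporters, 6 fell and 3 rose, including Slc7a1, the arginine and lysine carrier, from 28.9 and 26.9 to 4.72 and 5.34 FPKM (-2.26). In the knockout the same counts were 5 and 1, 5 and 2, and 6 and 1.

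Not every related list went the same way. Of 20 endoplasmic reticulum chaperones and other targets of ATF6 and XBP1, 12 rose and 4 fell at day 3 in wild type (median 0.28) and 13 rose and 4 fell in the knockout (0.32). Manf, a secreted chaperone-like factor, rose by 0.64, whereas Herpud1, which acts in degradation from the endoplasmic reticulum, fell by 0.92. Of 10 upstream regulators of mTORC1, 5 rose and 2 fell in wild type, among them Rragd (2.71), Castor2 (2.13, listed as Gatsl2) and Sesn3 (2.00), the last a relative of Sesn2. Of 18 tested further ATF4 targets, 10 fell and 4 rose at day 3 in wild type, with Vegfa at -2.57, Gdf15 at -1.79 and Stc2 at -1.67, and 9 fell and 4 rose in the knockout. By day 6, 8 of them had fallen and 5 had risen in wild type, and 6 had fallen and 8 had risen in the knockout. Vldlr rose by 1.42 in wild type and 2.89 in the knockout, and Ddit4 by 1.31 and 1.74, and neither interaction was called (adjusted p = 0.117 and 0.372). The wild type day 6 libraries lay apart, at 4.08 and 14.4 FPKM for Vldlr against 15.8 and 16.3 in the knockout. For Ddit4 they held 71.6 and 129 FPKM against 101 and 108.

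**Figure D3:**
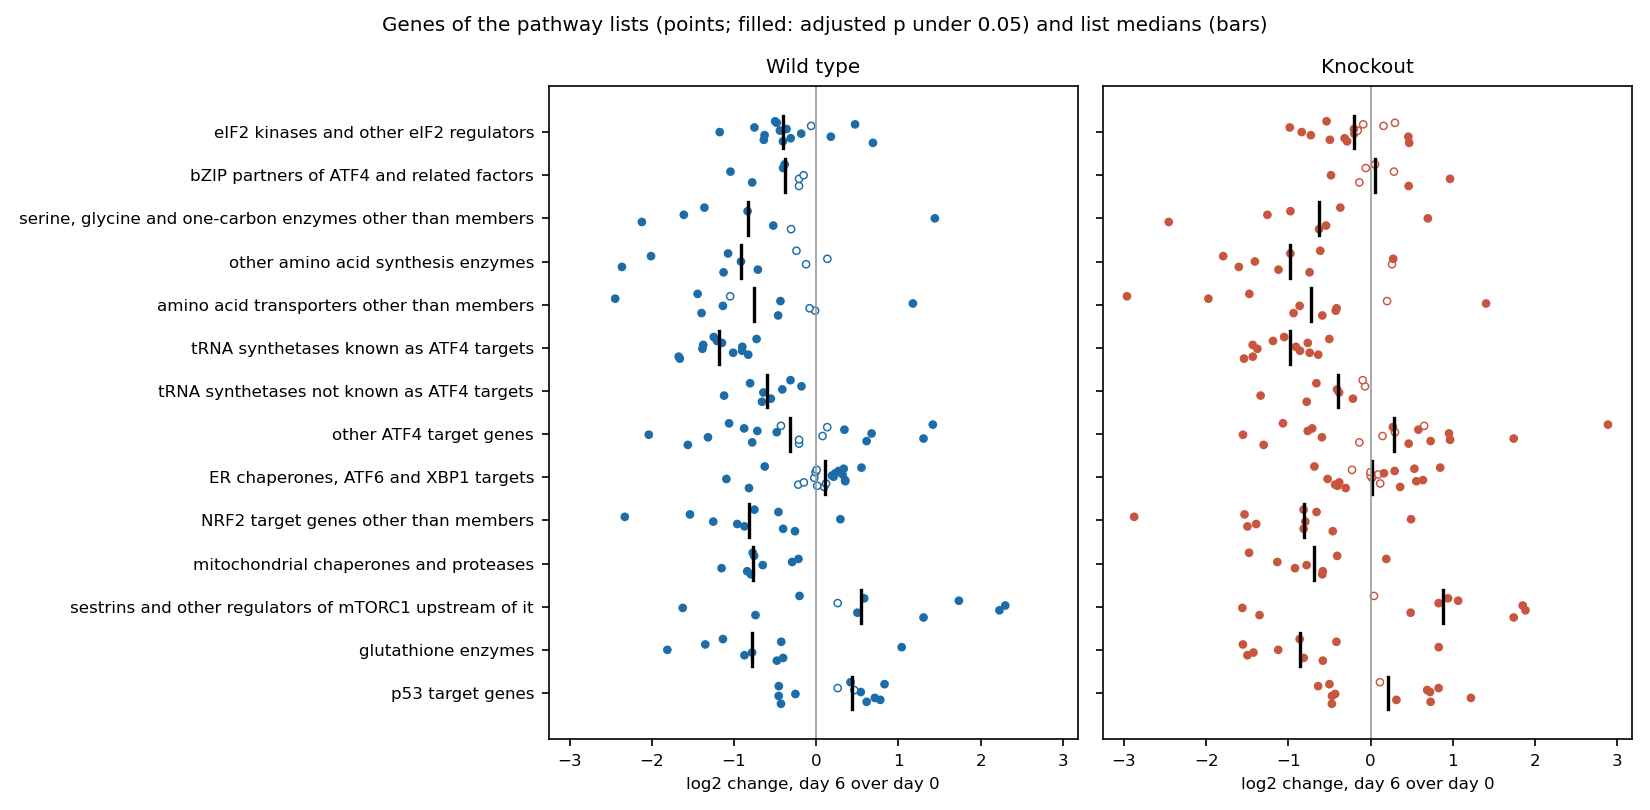
Log2 change from day 0 to day 6 of every tested gene of the 14 pathway lists, wild type at left and knockout at right, with points filled where the adjusted p is under 0.05 and bars at the list medians. All 12 tRNA synthetases known as ATF4 targets are filled and below 0 in both genotypes (medians -1.18 and -0.98), while the chaperone list lies on both sides of 0 (medians 0.11 and 0.02).

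Between genotypes at day 0, 0.152% of all tested genes were called lower in the knockout and 0.216% higher. Of the 145 list genes, 3 (2.07%) were called lower and 0 higher. They were Slc7a1 (-0.54, adjusted p = 0.0357), Atf5, an ATF4-related factor (-0.48, adjusted p = 0.0325), and Me1, an NADPH-making enzyme and NRF2 target (-0.47, adjusted p = 0.0455). Slc7a1 held 28.9 and 26.9 FPKM in wild type against 18.6 and 19.2 in the knockout, and Atf5 held 15.7 and 14.7 against 10.5 and 10.7. All 3 calls were lost when any one of the 4 day 0 libraries was left out, and with the replicate block. At day 3, Hmox1, for haem oxygenase (0.31, adjusted p = 0.0468), and Castor1, listed as Gatsl3, an arginine sensor upstream of mTORC1 (0.51, adjusted p = 0.0338), were called higher and none lower. Of 13 alternative fits, Hmox1 passed in 6 and Gatsl3 in 8. Both calls were lost with no filter on low values, in the day 3 libraries alone, and without wild type replicate 1 or either knockout replicate, and that of Hmox1 also without wild type replicate 2 and with the replicate block.

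At day 6, 26 of the 145 list genes (17.9%) were called higher and 23 (15.9%) lower in the knockout, beside 17.9% and 16.2% of all tested genes. The bZIP partners had 4 higher and 1 lower of 7 tested. Cebpb was at 4.46 and 6.42 FPKM in the knockout against 1.5 and 1.75 in wild type (1.28, adjusted p = 0.00154), and Cebpg at 7.21 and 7.38 against 11.6 and 10.7 (-0.55, adjusted p = 0.00224). Of the further ATF4 targets, 6 of 18 were higher and 0 lower, with Cebpb and Atf3 counted in both lists. These included Eif4ebp1, a brake on cap-dependent translation, at 205 and 195 against 125 and 130 FPKM (0.65, adjusted p = 0.000292), and Ppp1r15a, the phosphatase subunit that reverses eIF2 phosphorylation, at 14.0 and 18.3 against 8.63 and 10.6 (0.69, adjusted p = 0.00641). The mitochondrial serine enzyme Shmt2 was at 78.2 and 74.5 against 46.9 and 53.4 (0.60, adjusted p = 0.00172), in the opposite direction to Psat1. In the day 6 libraries alone none of these 5 genes was called, with adjusted p between 0.0671 and 0.135.

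For the interaction from day 0 to day 6, 17 of the 145 list genes (11.7%) were called in the higher direction and 10 (6.9%) in the lower, beside 5.28% and 6.9% of all tested genes. Among the 7 tested bZIP partners 5 were called higher and 0 lower, including Jdp2 (1.33), Cebpb (1.18) and Atf3 (0.67). Of 14 alternative fits, Jdp2 passed in 7, Cebpb in 9 and Atf3 in 12. The call of Jdp2 was lost with no filter on low values and without any one of the 4 day 0 libraries, wild type day 6 replicate 1 or knockout day 6 replicate 2. That of Cebpb was lost without wild type day 0 replicate 2, either day 0 knockout library, wild type day 6 replicate 1 or knockout day 6 replicate 2, and that of Atf3 without either day 0 knockout library. Shmt2 (0.99, adjusted p = 0.00337) and Eif4ebp1 (0.73, adjusted p = 0.00275) were called in each of the 15 alternative fits. So were the bZIP partner Atf5 (0.64) and, in the lower direction, Trp53inp1 (-1.33), Hspe1 (-0.84) and Yme1l1 (-0.71). No list gene was called in the interaction at day 3.

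The gamma subunit of eIF2 itself is encoded by an X-linked and a Y-linked gene, and these were looked up after their values were known. Eif2s3y held 11.2 and 14.5 FPKM in wild type at day 0 against 3.92 and 2.51 in the knockout. Its day 3 libraries held 9.40 and 14.4 against 2.86 and 1.82, and its day 6 libraries 12.0 and 20.4 against 2.48 and 1.40. Every knockout library was below every wild type library, with a log2 difference of -1.72 at day 0 (adjusted p = 0.0588), -1.94 at day 3 (0.0337) and -2.53 at day 6 (0.00107) by limma. Eif2s3x was at 98.5% of wild type at day 0 and 97.9% at day 3, and at 86.3% at day 6 (-0.21, adjusted p = 0.0322). The sum of both genes was 197 and 179 FPKM in wild type and 176 and 175 in the knockout at day 0. It was 141 and 149 against 132 and 133 at day 3, and 125 and 131 against 102 and 95.03 at day 6, with every knockout library below every wild type library of its day. The 2 genes are related copies, and whether some reads were split between them in counting was not tested. Y-linked RNA that differs between lines of the 2 genotypes cannot be told apart from the effect of the knockout.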

How the data were processed

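The authors deposited FPKM per gene for the embryoid bodies in one table. Trim Galore 0.4.1, TopHat2 2.0.13, Cufflinks 2.2.1, Cuffdiff and HTSeq 0.6.1 are named per the submitters' processing notes, without saying which made the FPKM, and strand use is not stated. Rows of 92 spike-ins, all 0, were dropped. Median log2 ratios of the libraries spanned 0.0471, so the values were already on one scale. At most 3 values above 0 were identical in any pair of libraries.

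Genes averaging at least 1 FPKM (12472 of 24458) were tested two-sided with limma 3.58.1 (R 4.3.3) on log2(FPKM + 1), using group means and a variance trend, with adjustment over all of them; the code was tested on simulated data. Depth and reads per gene are estimates from the steps of low FPKM values. Deviations of same-numbered replicates had correlations between -0.0807 and 0.0834, except for 0.2431 between wild type and knockout at day 6. The labels name no shared batch, so no block was used in the main fit.

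The members and the 14 lists were chosen with earlier results of these data known. Named list genes are, per list and genotype comparison, up to 3 called genes with the largest change (or the one with the lowest p), and for the change with day the 3 with the largest change. A table of ESCs holds 3 replicates per genotype, against 2 samples per genotype in the labels. It gives the genotype of each replicate, but the replicates could not be matched to samples. The planned ESC comparison was therefore not run. Promoters came from RefSeq, where all 10 members matched. ChIP-seq samples are not analysed here.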

Additional observations from a re-analysis of the deposited data

Results flagged for a closer look

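The genotype difference of Ddit3 differed between days by a test of the difference itself, the limma interaction of day 6 against day 0, which was 0.58 on the log2 scale (SE 0.15, adjusted p = 0.0445). Both knockout libraries were below both wild type libraries at day 0 and above both at day 6. Trib3 met the same test with 0.34 (SE 0.08, adjusted p = 0.0306), again with the order of all 4 libraries opposite on the 2 days. Neither call held in all of the alternative fits: 4 of 15 kept that of Ddit3 and 8 of 15 that of Trib3.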

How the results depend on the processing

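No value of a member that was past the threshold changed sign under any alternative. Counts of all genes called were 46, 149 and 4249 for knockout against wild type at days 0, 3 and 6, and 5 and 1518 for the interactions at days 3 and 6. With a pseudocount of 0.1 they were 111 at day 0 and 10 for the day 3 interaction. With no filter they were 84 at day 3 and 9 for the day 3 interaction, with 1 member called in the day 6 interaction in place of 2. With a mean FPKM of at least 5 they were 75 at day 0 and 3 for the day 3 interaction, and with median scaling the latter was 9. The replicate block left 20 genes at day 0 and 1 member in the day 6 interaction, and changed no other call of a member. With the line as a random effect the day 3 interaction had 3 genes and that at day 6 had 1 member. Fits of a single day called 8, 5 and 20 genes and 0 members at day 6, on fewer samples. Without the day 6 libraries 360 genes at day 0, 1 member among them, and 545 at day 3 were called. Library weights, chosen after seeing the data, gave 542, 705 and 1933 genes at days 0, 3 and 6, 32 and 943 for the interactions, 2 members at day 0 and 0 in the day 6 interaction.

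Leaving out 1 library at a time gave 8 to 25 genes at day 0, 14 to 51 at day 3 and 2021 to 4868 at day 6, 8 to 16 and 307 to 3094 for the interactions, 1 to 4 members at day 6, and 0 to 1 and 0 to 3 members in the interactions. For day 6 against day 3 in wild type it gave 1872 to 5242 genes, beside 4476 in the full set. The cause of these shifts was not tested. Depth limits Nupr1 at day 6 and Slc7a11 throughout, since few reads lie behind their values. The comparison in ESCs and its alternatives were not run.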
